A study of Mus musculus with 24 samples.

Results

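The genes described here are 10 genes of lipid handling by macrophages and of lipid transport by apolipoproteins, namely Apoe, Apoc1, Apoc2, Lpl, Plin2, Abca1, Abcg1, Fabp5, Msr1 and Cd5l. They were chosen by name from their values in these same libraries, FPKM (fragments per kilobase of gene, scaled to library size) and read counts over all 8 groups with the growth hormone contrasts among them. All 10 were found among the 22274 genes of the deposited table. Because the values that chose them are the values reported, the levels and differences of these 10 genes are a description. Counts of them past a threshold in the fit over all genes stand beside the share of all genes that passed, and support nothing.

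Male C57BL/6J mice were given a pituitary stalk electrical lesion (PEL). In this lesion an electric current damages the stalk by which the pituitary gland hangs from the hypothalamus. Bulk RNA was sequenced in 24 libraries, 8 groups of 3. Hypothalamic tissue was collected from Sham mice and GH-treated Sham mice, which carry the label of day 0, from lesioned mice on day 3 (group PEL_3d) or day 10 (group PEL_10d), and from PEL mice given GH (growth hormone) at day 3 (PEL_3d_GH) and day 10 (PEL_10d_GH). Hippocampal tissue came from Sham mice at day 0 and PEL mice at day 10. Age and the dose and schedule of GH are not given in the sources used here. No Sham group carries day 3 or day 10, so the lesion and the time since surgery cannot be told apart in any comparison of PEL with Sham. Total counts per library ran from 15095267 to 17973494, with a median of 15883700. Nothing in the labels says that the 3 libraries of a group came from separate animals, so p-values measure only the spread between these libraries, which may be technical.

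Both libraries labelled Sham 1 went against their tissue labels. Markers of the hypothalamus, 10 genes led by Pmch and Sst, summed to 91.2 FPKM in the hypothalamic library labelled Sham 1 and to 1464 and 1473 in the other Sham libraries, while markers of the hippocampus, 9 genes led by Neurod6 and Zbtb20, summed to 217 against 19.5 and 17. The hippocampal library labelled Sham 1 held 1284 FPKM of hypothalamic and 16.7 of hippocampal markers, whereas the other hippocampal Sham libraries held 155 and 144 FPKM of the former and 336 and 290.0 of the latter. Choroid plexus markers, 6 genes led by Ttr, summed to 14818 FPKM in the hypothalamic library labelled Sham 1 and to 24.6 and 21.5 in the others. In addition, the tissue field of hippocampal Sham 3 names the hypothalamus whereas its title names the hippocampus, and its markers were hippocampal. The other 22 libraries held the markers of the tissue in their titles. No label was exchanged. Results are given without both libraries labelled Sham 1, which leaves 2 libraries in each unlesioned group without GH, and then with them where they change a direction, a call or a count.

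Macrophages and microglia that take up dying cells and myelin must store or export the lipid they ingest. Scavenger receptors and lipoprotein lipase bring lipid in, perilipins coat the droplets in which it is stored, and ABC transporters load it onto apolipoprotein E for export, a route switched on by the sterol-sensing LXR receptors. In the brain astrocytes are the main source of apolipoprotein E at rest, and microglia and macrophages make more of it after injury. FPKM compares levels between genes because it divides by length. The length implied by count and FPKM was not the same in every library for some genes, from 4.45 to 5.83 kb for Abcg1 and by a ratio of 1.59 for Msr1, 1.21 for Plin2 and 1.15 for Lpl, so that differences between groups are given from the counts (edgeR, log2 scale, ± SE).

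Apoe, which carries cholesterol and phospholipid between cells, was the most abundant of the 10 genes in each of the 8 groups. Its level was 1339 and 1396 FPKM in Sham, 1232, 1180.5 and 1269.6 in Sham with GH, 2111, 1892 and 2254 in PEL_3d, and 3710.2, 2740.2 and 3755 in PEL_10d. With GH it was 3667, 3505 and 2882 FPKM in PEL_3d_GH and 3397, 5119.6 and 4573 in PEL_10d_GH. Every PEL library lay above every hypothalamic library without a lesion, PEL_10d lay above PEL_3d, and PEL_3d_GH lay above PEL_3d, while PEL_10d and PEL_10d_GH overlapped. On the log2 scale the difference from Sham was 0.58 ± 0.08 at day 3 and 1.29 ± 0.13 at day 10, and PEL_10d was higher than PEL_3d by 0.71 ± 0.12. Ordered by mean FPKM ± SD, the hypothalamic groups ran from Sham with GH (1227 ± 44.7, n = 3) and Sham (1368 ± 40.7, n = 2) through PEL_3d (2086 ± 182), PEL_3d_GH (3352 ± 415) and PEL_10d (3402 ± 573) to PEL_10d_GH (4363 ± 880.2, n = 3 each), and the last 3 of these groups overlapped. In the hippocampus the level was 834 and 923 FPKM in Sham and 1066, 904 and 911 in PEL_10d, and these overlapped. The libraries labelled Sham 1 held 1141 FPKM (hypothalamus) and 1313 FPKM (hippocampus).

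**Figure D1:**
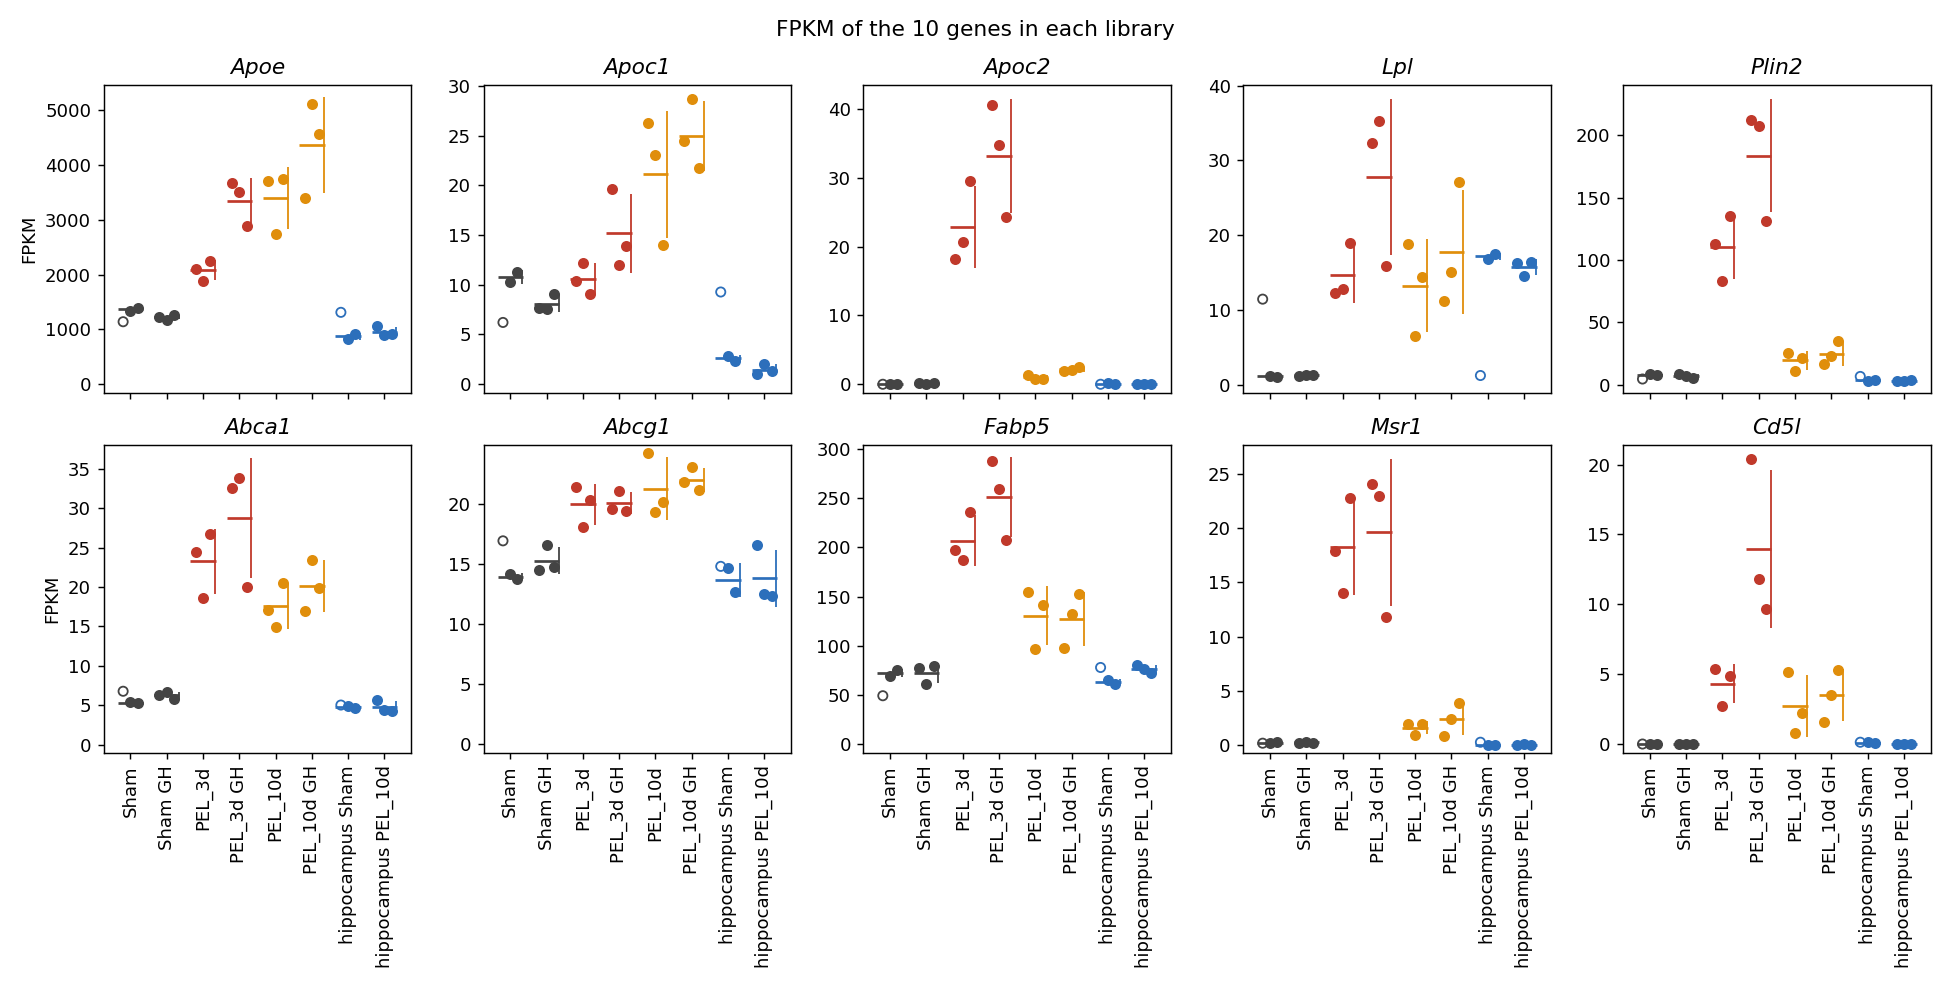
Level of each of the 10 genes in FPKM (vertical axis, linear) in the 24 libraries, by group. Each point is a library, open points are the libraries labelled Sham 1, horizontal lines are group means and vertical bars the SD without them. The lesioned hypothalamic groups stand, leaving aside the open points, above the unlesioned ones for each gene but Apoc1 at day 3, and Apoc2, Plin2 and Msr1 are lower at day 10 than at day 3.

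Apoc1 and Apoc2 lie in the same cluster as Apoe and encode small apolipoproteins, of which Apoc2 is the activator that lipoprotein lipase needs. Apoc1 was 10.2 and 11.2 FPKM in Sham, 10.3, 12.2 and 9.02 in PEL_3d and 26.3, 23.1 and 13.9 in PEL_10d. PEL_3d overlapped Sham and the difference was -0.04 ± 0.22, whereas all PEL_10d libraries lay above Sham, by 0.96 ± 0.27. With GH the level was 7.66, 7.56 and 9.06 FPKM in Sham with GH, 19.6, 11.9 and 13.9 in PEL_3d_GH and 24.5, 28.7 and 21.8 in PEL_10d_GH, and both lesioned groups with GH lay above Sham with GH. In the hippocampus Apoc1 was 2.83 and 2.31 FPKM in Sham and 1.02, 2.06 and 1.28 in PEL_10d. The PEL_10d libraries of the hippocampus lay below its Sham libraries and the difference was -0.82 ± 0.42.

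Apoc2 had no read in Sham 2, Sham 3 or the hypothalamic library labelled Sham 1, and 1, 0 and 2 counts in Sham with GH. Its level was 18.2, 20.7 and 29.6 FPKM in PEL_3d, 40.6, 34.8 and 24.3 in PEL_3d_GH, 1.41, 0.761 and 0.801 in PEL_10d and 1.87, 2.1 and 2.48 in PEL_10d_GH. The day 3 groups thus stood apart from all others and the day 10 groups lay between them and the unlesioned groups. Against a floor of 3 counts per library, Apoc2 was at least 73.8-fold higher in PEL_3d than in Sham and at least 3.2-fold higher in PEL_10d. PEL_10d was lower than PEL_3d, with a log2 difference of -4.50 ± 0.29. In the hippocampus 1 count was seen, in Sham 2, and 0 in PEL_10d, so no fold is given. Such floors and count intervals cover counting error only.

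**Figure D2:**
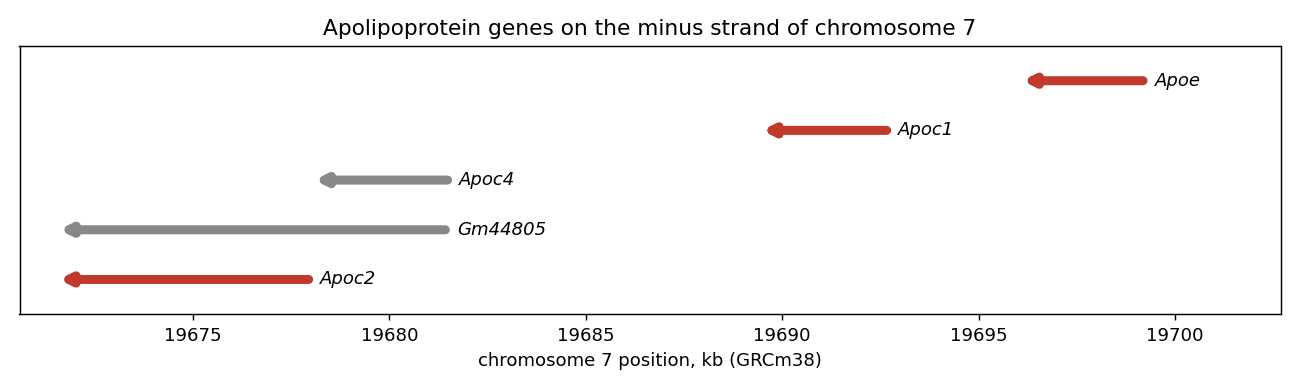
Map of the apolipoprotein cluster on chromosome 7 of GRCm38, with position on the horizontal axis and the spans of Apoc2, Gm44805, Apoc4, Apoc1 and Apoe, all on the minus strand. The span of Gm44805 covers nearly all of Apoc2 and reaches into Apoc4.

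In GRCm38 coordinates the cluster lies on the minus strand of chromosome 7, with Apoc2 at chr7:19671579-19677941, Apoc4 at chr7:19678083-19681479, Apoc1 at chr7:19689481-19692660 and Apoe at chr7:19696109-19699188. Gm44805, which the table also names Apoc2, spans chr7:19671584-19681423 and overlaps Apoc2 and Apoc4. How reads from the shared stretch were divided is not given in the sources used here, so the level of Apoc2 is uncertain to that extent. Gm44805 itself reached at most 0.642 FPKM and Apoc4 at most 1.64, against 40.6 for Apoc2. Apoc1 and Apoe had no annotated overlap with these genes.

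Lpl encodes lipoprotein lipase, which releases fatty acids from lipoproteins at the cell surface. Its level was 1.2 and 1.04 FPKM in Sham, 1.15, 1.25 and 1.35 in Sham with GH, 12.3, 12.7 and 18.9 in PEL_3d and 18.8, 6.57 and 14.3 in PEL_10d. With GH it was 32.3, 35.3 and 15.9 FPKM in PEL_3d_GH and 11.2, 15.1 and 27 in PEL_10d_GH. Leaving out the library labelled Sham 1, all 12 lesioned libraries lay above the unlesioned ones, the day 3 and day 10 groups overlapped, and PEL_3d_GH overlapped PEL_3d. Differences from Sham were 3.56 ± 0.20 at day 3 and 3.5 ± 0.44 at day 10. The hypothalamic library labelled Sham 1 held 11.4 FPKM, and with it as labelled these differences became 1.46 ± 0.95 and 1.40 ± 1.01. In the hippocampus, where Lpl was 16.9 and 17.5 FPKM in Sham and 16.2, 14.5 and 16.5 in PEL_10d, the libraries without a lesion lay within the range of the lesioned hypothalamus, and the hippocampal library labelled Sham 1 held 1.23 FPKM.

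Msr1, the class A scavenger receptor of macrophages, was 0.157 and 0.225 FPKM in Sham (8 and 5 counts) and 0.203, 0.26 and 0.20 in Sham with GH. It was 17.9, 14 and 22.8 FPKM in PEL_3d and 24.1, 22.9 and 11.8 in PEL_3d_GH, against 1.93, 0.877 and 1.91 in PEL_10d and 0.85, 2.42 and 3.83 in PEL_10d_GH. Unlesioned, day 10 and day 3 libraries formed separate ranges that did not overlap. The difference from Sham was 6.61 ± 0.34 at day 3 and 3.18 ± 0.59 at day 10, from few Sham counts. PEL_10d was lower than PEL_3d, with a difference of -3.43 ± 0.31.

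Cd5l is a secreted protein of tissue macrophages that binds lipids and is induced by LXR. It had 1 count in each of Sham 2 and Sham 3 and 1 count in the 3 libraries of Sham with GH together. Its level was 5.36, 2.75 and 4.86 FPKM in PEL_3d, 20.4, 11.8 and 9.65 in PEL_3d_GH, 5.16, 0.796 and 2.23 in PEL_10d and 1.59, 3.54 and 5.31 in PEL_10d_GH. PEL_3d_GH was above every other group without overlap, while the remaining lesioned groups overlapped. With so few Sham counts the count ratio to Sham, with its 95% counting interval, was 136 (37.3 to 1124) at day 3 and 84.3 (23.1 to 700.0) at day 10. In the hippocampus, leaving out the library labelled Sham 1, Cd5l reached at most 0.128 FPKM.

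Fabp5 carries fatty acids inside the cell and, unlike Msr1 and Cd5l, was abundant without a lesion. It was 69.7 and 75.2 FPKM in Sham, 77.5, 61 and 79.6 in Sham with GH, 197, 187 and 236 in PEL_3d and 287, 259 and 207 in PEL_3d_GH. At day 10 it was 155, 96.4 and 141 FPKM in PEL_10d and 97.8, 132 and 152 in PEL_10d_GH. Day 3 libraries lay above day 10 libraries and these above the unlesioned ones, without overlap. Differences from Sham were 1.49 ± 0.10 at day 3 and 0.83 ± 0.17 at day 10. In the hippocampus the level was 65.4 and 60.8 FPKM in Sham and 80.6, 75.9 and 72 in PEL_10d, a difference of 0.25 ± 0.07 in libraries that did not overlap.

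Plin2 encodes the perilipin that coats lipid droplets in most cells outside fat tissue. Its level was 8.23 and 7.72 FPKM in Sham and 8.97, 6.95 and 5.48 in Sham with GH, and 113, 83.5 and 135 in PEL_3d and 212, 208 and 132 in PEL_3d_GH. At day 10 it was 25.8, 11.3 and 21.2 FPKM in PEL_10d and 16.3, 23.2 and 35.3 in PEL_10d_GH. All day 3 libraries were above all day 10 libraries, which in turn were above the unlesioned ones. The difference from Sham was 3.86 ± 0.21 at day 3 and 1.31 ± 0.28 at day 10, and PEL_10d was lower than PEL_3d, at -2.55 ± 0.25. In the hippocampus Plin2 was 3.21 and 3.94 FPKM in Sham and 3.32, 3.24 and 3.39 in PEL_10d, which overlapped.

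Abca1 moves cholesterol and phospholipid to lipid-poor apolipoproteins, and Abcg1 moves cholesterol to larger particles. Both are known LXR targets. Abca1 was 5.4 and 5.26 FPKM in Sham, 6.28, 6.72 and 5.84 in Sham with GH, 24.4, 18.7 and 26.7 in PEL_3d and 32.5, 33.8 and 20.1 in PEL_3d_GH. It was 17.1, 14.9 and 20.5 FPKM in PEL_10d and 16.9, 23.5 and 19.8 in PEL_10d_GH. Every lesioned library was above every unlesioned one, and the 4 lesioned groups overlapped. Differences from Sham were 2.11 ± 0.14 at day 3 and 1.70 ± 0.13 at day 10.

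Abcg1 levels spanned a much smaller range. It was 14.2 and 13.7 FPKM in Sham, 14.5, 16.5 and 14.7 in Sham with GH, 21.4, 18.1 and 20.3 in PEL_3d and 24.3, 19.3 and 20.2 in PEL_10d. With GH it was 19.6, 21.1 and 19.4 FPKM in PEL_3d_GH and 21.8, 23.1 and 21.1 in PEL_10d_GH. Lesioned libraries were above unlesioned ones on this scale. By FPKM the mean in PEL_3d was 1.43 times that of Sham, but by counts normalized to library size it was 1.19 times, since the implied length differed between libraries. Differences from Sham by counts were 0.23 ± 0.07 at day 3 and 0.46 ± 0.07 at day 10. In the hippocampus Abca1 was 4.84 and 4.7 FPKM in Sham and 5.67, 4.33 and 4.29 in PEL_10d, and Abcg1 was 14.7 and 12.7 and 16.5, 12.5 and 12.3, with overlap for both genes in FPKM. By counts normalized to library size, every PEL_10d library was above both Sham libraries for Abcg1, and the ratio of means was 1.17 against 1.01 by FPKM.

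PEL_3d against Sham asks what differs in the hypothalamus 3 days after the lesion. Of the 10 genes, 9 were past an adjusted p of 0.05, all higher, where 22.2% of the 14905 genes tested were called higher and 18.2% lower. Apoc1 was the exception. Nothing is read from this count or from those of the comparisons that follow, since the genes were chosen on the values of all 8 groups. With the library labelled Sham 1 put back, fewer genes of the whole table were called, as counted in the last section. Of the 10 genes 7 were then past the threshold, and Apoc1 stood at 0.17 ± 0.26. Abcg1 was no longer past it with replicate number as a block, or without PEL_3d 1, PEL_3d 3, Sham 2 or Sham 3, which left 8 in each case.

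Of 82 other genes of lipid handling, in 7 lists, 67 could be tested in the same fit, with the median log2 difference of all genes at -0.01. Of 12 lipoprotein and scavenger receptors tested, 9 rose and 1 fell, with a list median of 0.95. Trem2, the microglial lipid receptor, rose by 3.30 ± 0.15, the scavenger receptor Stab1 by 4.09 ± 0.19, Cxcl16 by 2.33 ± 0.19 and Cd36 by 2.63 ± 0.32 (edgeR adjusted p 1.18e-07 to 0.000119, higher in 3 of 3 PEL_3d libraries). Of 8 genes of lysosomal lipid handling 6 rose and 0 fell (median 0.66), among them the acid lipase Lipa (1.79 ± 0.14), the sterol carrier Npc2 (1.15 ± 0.09) and Lamp1 (0.68 ± 0.07, edgeR adjusted p 4.85e-06 to 4.39e-05). Of 16 LXR receptors, targets and sterol genes, 7 rose and 3 fell (median 0.22). Ch25h rose by 3.97 ± 0.32, Lpcat3 by 1.16 ± 0.12, Smpdl3a by 0.92 ± 0.10 and Mylip by 0.99 ± 0.13 (edgeR adjusted p 6.17e-06 to 0.000182).

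Of 5 genes of lipase regulation 2 rose, Angptl4 by 1.79 ± 0.23 and Lcat by 0.59 ± 0.18 (median 0.26). Of 14 genes of lipid droplets and triglyceride turnover 4 rose and 0 fell (median 0.23), namely Soat1 (1.07 ± 0.07), which esterifies cholesterol, Mgll (0.63 ± 0.11), Abhd5 (0.48 ± 0.11) and Plin3 (0.71 ± 0.16). The other apolipoproteins were mostly too low to test. Of the 3 that could be tested Apod (1.09 ± 0.10) and Clu (0.34 ± 0.06) rose. Among 9 other fatty acid binding proteins and PPAR targets 4 rose (median 0.33), of which Cpt1a, which takes fatty acids into mitochondria, rose by 1.11 ± 0.11, Fabp7 by 1.12 ± 0.12 and Ppard by 0.79 ± 0.14. For all genes named in this paragraph the edgeR adjusted p lay between 1.98e-06 and 0.0255, and each was higher in 3 of 3 PEL_3d libraries than in both Sham libraries. In all 38 of 67 genes passed the test. With the library labelled Sham 1 put back 16 of 67 passed, and of 23 called list genes chosen by rule 9 were no longer called and Mgll stood at -0.61 in place of 0.63. Those still called were Trem2, Stab1, Cxcl16, Lipa, Npc2, Lamp1, Pla2g15, Ch25h, Lpcat3, Mylip, Soat1, Apod and Fabp7.

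PEL_10d against Sham shares its Sham libraries with the day 3 comparison, so the 2 sets of differences are not independent. Of the 10 genes, 8 of the 9 tested were past the threshold, all higher, with 7.97% of 14801 genes called higher and 1.43% lower. Apoc1 was the one not past it, and Apoc2 was under the filter on low counts. With the library labelled Sham 1 put back 4 were past it, and 2 without Sham 2 and 3 without Sham 3. Each of these fits called fewer genes of the whole table too, as counted in the last section. Apoc1 was past the threshold with DESeq2 or without PEL_10d 3, and both Apoc1 and Apoc2 were with no filter or in one fit over the hypothalamus. Among the 7 lists, 23 of 66 genes passed. Of the receptors, 5 of 11 rose and 0 fell (median 0.88 against -0.01 for all genes). Trem2 rose by 2.72 ± 0.24, Cxcl16 by 1.80 ± 0.25 and Scara3 by 1.12 ± 0.14 (edgeR adjusted p 0.000571 to 0.00389, higher in 3 of 3 PEL_10d libraries).

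Of 8 genes of lysosomal lipid handling 6 rose at day 10 (median 0.44), with Lipa at 1.33 ± 0.31, Npc2 at 0.70 ± 0.11, Lamp1 at 0.47 ± 0.08 and Pla2g15 at 0.53 ± 0.10. Of 16 LXR and sterol genes 4 rose and 0 fell (median 0.31). These were Srebf1 (0.51 ± 0.09), Lpcat3 (0.62 ± 0.12), Mylip (0.74 ± 0.15) and Smpdl3a (0.69 ± 0.15). In the remaining lists 2 of 5 genes of lipase regulation rose (Pltp 0.70 ± 0.09 and Lcat 0.55 ± 0.13, median 0.36), 2 of 14 droplet genes (Soat1 0.74 ± 0.11 and Mgll 0.42 ± 0.11, median 0.29), 2 of 3 apolipoproteins (Clu 0.53 ± 0.07 and Apod 1.09 ± 0.15, median 0.53) and 2 of 9 fatty acid binding proteins and PPAR targets, Cpt1a (0.51 ± 0.08, median 0.35) among them. The edgeR adjusted p of these genes lay between 0.00229 and 0.0446, and each was higher in 3 of 3 PEL_10d libraries. With the library labelled Sham 1 put back 3 of 65 list genes passed, Trem2, Cxcl16 and Scara3. Of 19 called list genes chosen by rule 14 were then no longer called, and the difference was -0.82 for Mgll and -0.09 for Smpdl3a. Of the same 19, 17 were no longer called without Sham 2 and 15 without Sham 3.

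**Figure D3:**
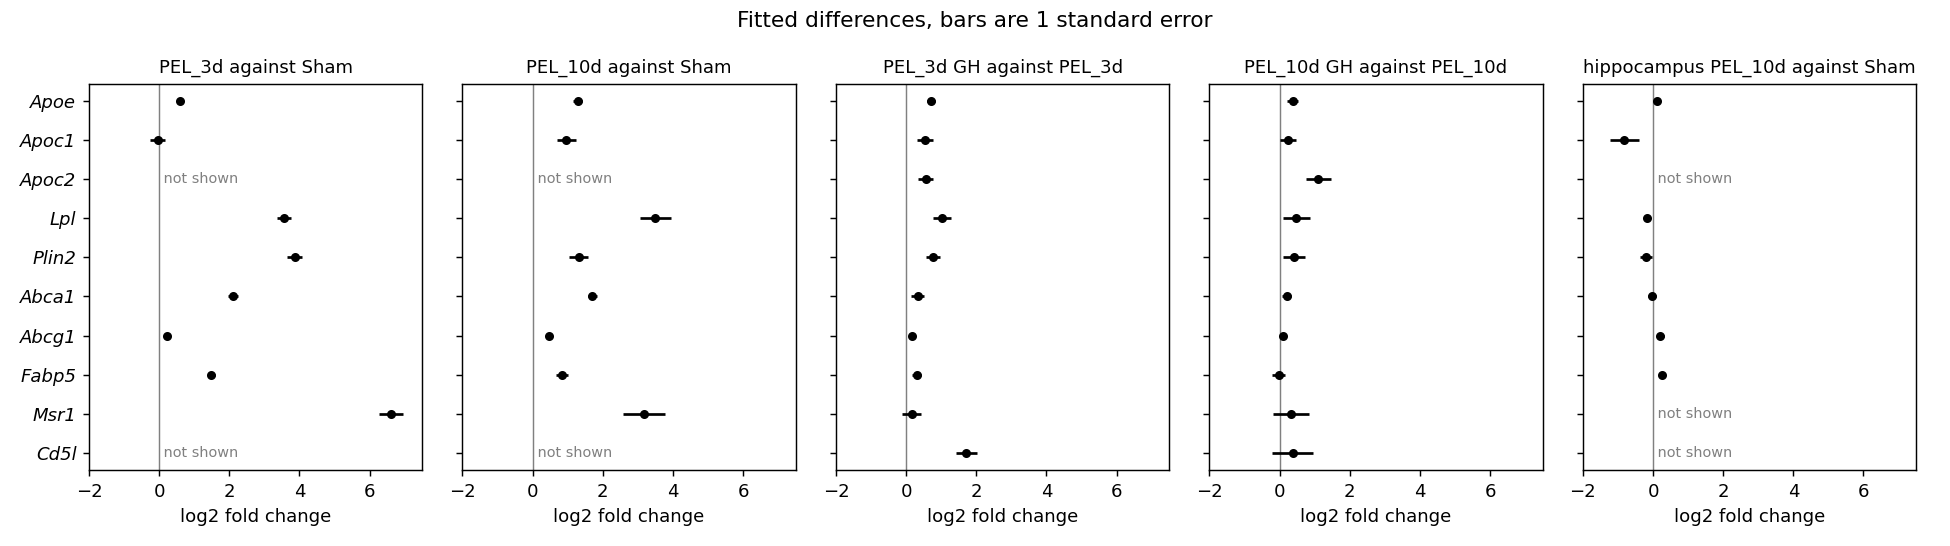
Difference of each of the 10 genes in 5 comparisons, as edgeR log2 fold change with bars of 1 SE. Genes marked as not shown were under the filter on low counts or had a group at or under the floor of 3 counts per library. In the lesion comparisons Plin2 and Msr1 lie farther from 0 at day 3 than at day 10, and the differences with GH at day 10 lie nearer to 0 than those at day 3 for each gene but Apoc2 and Msr1.

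PEL_10d against PEL_3d compares the lesioned hypothalamus between the times, with no Sham library in the fit. Of the 10 genes, 3 were past the threshold and higher at day 10 (Apoe 0.71 ± 0.12, Apoc1 1.01 ± 0.24, Abcg1 0.24 ± 0.06), and 4 were lower (Apoc2 -4.50 ± 0.29, Msr1 -3.43 ± 0.31, Plin2 -2.55 ± 0.25, Fabp5 -0.66 ± 0.16). Over all 14807 genes 6.33% were called higher and 12.2% lower. As the genes were chosen on these groups too, the count is a description. Lpl (-0.05 ± 0.31), Abca1 (-0.40 ± 0.14) and Cd5l (-0.67 ± 0.51) were not past it with edgeR. DESeq2 called Abca1 besides the 7, and with edgeR Abca1 was past it with the replicate block, without PEL_10d 3 or without PEL_3d 2, and Cd5l without PEL_10d 1. Apoc1 was no longer past it without PEL_10d 1, PEL_10d 2, PEL_3d 1 or PEL_3d 3, and Abcg1, whose groups overlapped in FPKM but not in normalized counts, without PEL_10d 2, PEL_10d 3, PEL_3d 2 or PEL_3d 3. Without PEL_3d 3, where Fabp5 was lost too, 4 of the 10 were past the threshold, and without PEL_10d 2 there were 5.

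In the lists 18 of 66 genes changed between day 3 and day 10. Those lower at day 10 included Ch25h (-2.90 ± 0.30), Stab1 (-2.47 ± 0.24), Angptl4 (-1.47 ± 0.29), Fabp7 (-0.81 ± 0.13) and Scarb1 (-0.62 ± 0.10), with edgeR adjusted p of 0.00016 to 0.00818 and every PEL_10d library below every PEL_3d library. Those higher included Cyp27a1 (0.69 ± 0.19), the lipid transfer protein Pltp (0.49 ± 0.09), Crabp2 (0.64 ± 0.16), Plin5 (0.95 ± 0.28), Scd1 (0.32 ± 0.06) and Vldlr (0.25 ± 0.06), with edgeR adjusted p of 0.00497 to 0.0442 and no overlap either. By list, 2 receptors rose and 3 fell of 12 (median -0.37 against 0.01 for all genes), 0 and 1 of 8 lysosomal genes (median -0.22), 2 and 2 of 16 LXR and sterol genes (median -0.03), 1 and 1 of 14 droplet genes (median -0.04), 1 and 1 of 5 genes of lipase regulation (median -0.04), 1 and 3 of 9 fatty acid binding proteins and PPAR targets (median 0.1), while the 2 other apolipoproteins tested had a median of 0.1. Of 16 called list genes chosen by rule, 8 were no longer called without PEL_3d 3, 7 without PEL_3d 1 or PEL_10d 2, and 3 or 4 without any one of the other 3 libraries.

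GH given to lesioned mice was compared with the lesion alone at each time. At day 3 all 10 genes had a higher fitted level with GH, and 0 of 10 passed the adjusted threshold with edgeR, where 0.027% of 14798 genes did. Under an unadjusted edgeR p of 0.05 were 8 of the 10 genes and 1006 of the 14798. DESeq2 called 3 of the 10, Apoe, Plin2 and Cd5l, and 59 genes in all. Differences were 1.71 ± 0.30 for Cd5l, 1.03 ± 0.25 for Lpl, 0.76 ± 0.20 for Plin2, 0.71 ± 0.11 for Apoe, 0.56 ± 0.22 for Apoc2 and 0.54 ± 0.22 for Apoc1, and smaller for Abca1 (0.33 ± 0.19), Fabp5 (0.30 ± 0.13), Abcg1 (0.16 ± 0.07) and Msr1 (0.16 ± 0.27). PEL_3d_GH did not overlap PEL_3d for Apoe and Cd5l, nor for Abcg1 in counts normalized to library size. PEL_3d_GH 3 was the lowest of its group for each of the 10 genes but Apoc1. Without it 3 of the 10 passed, and 56 genes in all in place of 4. General macrophage and microglial markers were the list whose sums did not overlap between these groups, with PEL_3d_GH higher. Within the list only Lyz2 and Tyrobp did not overlap. Lyz2, the most abundant, was 1685, 1797 and 993 FPKM in PEL_3d_GH against 683, 394 and 905 in PEL_3d. The other members overlapped, and the part of these markers was not tested. The difference of Msr1 was -0.01 without PEL_3d 2 or without PEL_3d_GH 2. Of the 67 list genes tested 0 passed with edgeR (17 under an unadjusted p of 0.05, 3 by DESeq2). On leaving out PEL_3d_GH 3, 3 of 68 passed.

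At day 10 the differences with GH were nearer to 0 than at day 3 for each gene but Apoc2 and Msr1, with 9 of 10 genes above 0 and 0% of 14763 genes called. edgeR called 0 of the 10 genes, with 1 under an unadjusted p of 0.05, where 906 of 14763 genes were. DESeq2 called 0 of the 10 and 36 genes in all. Apoc2 differed by 1.11 ± 0.36 with libraries that did not overlap, Lpl by 0.48 ± 0.39, Plin2 by 0.41 ± 0.31, Apoe by 0.37 ± 0.16 and Fabp5 by -0.03 ± 0.19. Without PEL_10d 2 or without PEL_10d_GH 3, Cd5l stood at -0.08 in place of 0.37 ± 0.59. Of 65 list genes 0 passed with edgeR (5 under an unadjusted p of 0.05, 0 by DESeq2). The summed markers of microglia, astrocytes, oligodendrocytes, neutrophils and the hypothalamus were each higher in every PEL_10d_GH library than in every PEL_10d library. The hypothalamic markers did not all move this way. Avp and Oxt were higher in every PEL_10d_GH library. Nkx2-1 was lower, at 7.03, 6.71 and 7.58 FPKM against 11.3, 10.9 and 8.1 in PEL_10d. The others, Pmch and Hcrt among them, overlapped. The part of all these markers in the differences was not tested.

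In Sham mice GH was set against Sham without it. edgeR called 0 of the 7 genes tested (2 under an unadjusted p of 0.05, 0 by DESeq2), with 1.09% of 14539 genes called and 2187 under the unadjusted p. Apoe was lower with GH in all 3 libraries, at -0.14 ± 0.05, and Abca1 was higher by 0.25 ± 0.07. The other 5 lay between -0.39 ± 0.21 for Apoc1 and 0.09 ± 0.06 for Abcg1. With the library labelled Sham 1 put back Lpl stood at -2.04 ± 1.01 in place of 0.08 ± 0.19, and edgeR called 0 genes of the whole table (787 under an unadjusted p of 0.05). Apoc2, Msr1 and Cd5l were under the filter on low counts. In the lists 2 of 65 genes passed, Plin4 rising by 0.96 ± 0.20 and Fabp7 falling with -0.56 ± 0.09 (edgeR adjusted p 0.0482 and 0.0118, 3 of 3 libraries each). Neither was called without Sham 2, Sham 3 or Sham with GH 1, in one fit over the hypothalamus, or with the library labelled Sham 1 put back. Every Sham with GH library was above both Sham libraries in summed markers of astrocytes and blood monocytes and below them in those of microglia, endothelium, anterior pituitary and hypothalamus. Single markers differed in direction within 2 of these lists. In the endothelium, with 2 of 5 called by edgeR, Cldn5 was lower with GH (11.2, 11.7 and 6.96 FPKM against 17.5 and 18.3). Slco1a4 was higher (25.7, 26.3 and 26 against 20.1 and 18.9). Among monocyte markers Vcan was higher with GH and Ly6c2 lower. Other members of these 2 lists overlapped. The part of these markers was not tested.

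Whether GH differed in its effect between lesioned and Sham mice was asked by the difference of the 2 effects. Under an unadjusted edgeR p of 0.05 were 4 of the 10 genes at day 3, and 1594 of 15164 genes in all. At day 3 the GH effect on Apoe exceeded that in Sham by 0.83 ± 0.13, the single gene of the 10 past the threshold (1 by DESeq2), with 0.0462% of 15164 genes called. That call was lost with DESeq2 size factors in edgeR, with the library labelled Sham 1 put back, and on leaving out any of 10 of the 11 libraries in turn. At day 10 edgeR called 0 of the 10 genes (1 under an unadjusted p of 0.05, 0 by DESeq2), and the difference was 0.51 ± 0.20 for Apoe. Of all 15116 genes, 0% were called and 1366 were under the unadjusted edgeR p. Of 69 list genes edgeR called 0 in either interaction (15 and 9 under an unadjusted p of 0.05, 0 by DESeq2 in both). On leaving out PEL_3d_GH 3, edgeR called 6 of 69 list genes in the day 3 interaction. It then called 3 of the 10 genes, with Lpl and Plin2 gained. In that setting edgeR also called far more genes of the whole table than in the main fit, as counted in the last section.

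The lesion was also compared within GH-treated mice, where the 3 libraries of Sham with GH stand in for Sham and all held hypothalamic markers. All 10 genes were past the threshold and higher at day 3, with 26.9% of 14743 genes called higher and 25.2% lower, and all 10 at day 10, with 17.7% of 14686 higher and 13.3% lower. These counts too are a description of genes chosen on the same libraries. Apoe differed by 1.42 ± 0.10 at day 3 and 1.81 ± 0.13 at day 10, Lpl by 4.50 ± 0.28 and 3.91 ± 0.33, Plin2 by 4.70 ± 0.19 and 1.81 ± 0.25, and Abca1 by 2.17 ± 0.17 and 1.65 ± 0.11. Msr1 differed by 6.39 ± 0.39 and 3.14 ± 0.53, Fabp5 by 1.76 ± 0.13 and 0.79 ± 0.15, Apoc1 by 0.87 ± 0.22 and 1.60 ± 0.16, and Abcg1 by 0.29 ± 0.06 and 0.47 ± 0.05. These comparisons share Sham with GH. For Apoc2 the count ratio was 341 (95% counting interval 116 to 1654) at day 3 and 22.3 (7.31 to 111) at day 10, and for Cd5l it was 1385 (248 to 54736) and 350.0 (62.4 to 13862), from 3 counts and 1 count in Sham with GH. In the lists 46 of 67 genes passed at day 3 and 35 of 66 at day 10. Trem2 rose by 3.88 ± 0.11 and 3.29 ± 0.20 (edgeR adjusted p 3.10e-08 and 3.42e-06, higher in 3 of 3 libraries at each time).

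The hippocampus lies away from the lesion. Of the 7 genes that could be tested there, edgeR called 0 between PEL_10d and Sham (2 under an unadjusted p of 0.05, 0 by DESeq2). Of all 14191 genes, 6.15% were called and 3471 were under the unadjusted edgeR p. Differences ran from -0.82 ± 0.42 for Apoc1 to 0.25 ± 0.07 for Fabp5, with Apoe at 0.11 ± 0.08, Lpl at -0.16 ± 0.08, Plin2 at -0.21 ± 0.17, Abca1 at -0.03 ± 0.12 and Abcg1 at 0.21 ± 0.09. Apoc2, Msr1 and Cd5l were under the filter on low counts. Of 62 list genes Cyp46a1 rose by 0.46 ± 0.07 in 3 of 3 libraries and Lrp1 by 0.28 ± 0.05, with libraries that overlapped Sham in FPKM. Cpt1a (-0.74 ± 0.10), Npc2 (-0.58 ± 0.10), Smpdl3a (-0.52 ± 0.10) and Pltp (-0.49 ± 0.10) fell, in 3 of 3 libraries each (edgeR adjusted p 0.00609 to 0.0331 for the 6 genes). None of the 6 was called without hippocampal Sham 2 or without hippocampal Sham 3, where edgeR called 106 and 71 genes in all in place of 873. Choroid plexus markers moved with this comparison, with 5 of 6 falling (median -3.59). They summed to 4329 and 5423 FPKM in hippocampal Sham and 134, 38.5 and 797 in PEL_10d, led by Ttr, with none of the 6 at 0. The summed markers of 6 other kinds were higher in each hippocampal PEL_10d library than in both Sham libraries. Those of blood, led by Hbb-bs, summed to 40.1, 111 and 87.8 FPKM in PEL_10d against 26.4 and 14.5 in Sham (median difference 1.84), and those of astrocytes, led by Aldoc, to 1018, 951 and 987 against 776 and 881 (median 0.09). General macrophage and microglial markers, led by C1qa or C1qb, summed to 138, 111 and 112 FPKM against 83.9 and 88.4 (median 0.42), and microglial markers, led by Csf1r, to 119, 94.7 and 105 against 85.6 and 83.5 (median 0.29). Endothelial markers, led by Ly6c1, summed to 94.5, 88.6 and 92.2 FPKM against 80.1 and 87.1 (median 0.02), and hypothalamic markers, nearly all of it Sst, to 177, 228 and 211 against 155 and 144 (median 0.26 over the 2 tested). Neuronal markers were lower in each PEL_10d library, at 1652, 1679.5 and 1681 FPKM against 1762 and 1739 (median -0.04), led by Snap25, while the marker lists not named here overlapped. The part of all these markers in the differences was not tested. With the hippocampal library labelled Sham 1 put back edgeR called 0 genes of the whole table (1434 under an unadjusted p of 0.05), and the difference of Lrp1 was -0.01, that of Apoe -0.02 ± 0.16 and that of Lpl 0.39 ± 0.86.

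The lesion effect at day 10 was compared between the tissues by the difference of the 2 effects. Of 9 genes tested 6 were past the threshold, where 10.7% of 15053 genes were called, and nothing is read from that count. The differences, hypothalamus minus hippocampus, were 3.63 ± 0.48 for Lpl, 1.75 ± 0.51 for Apoc1, 1.69 ± 0.19 for Abca1, 1.49 ± 0.38 for Plin2 and 1.15 ± 0.17 for Apoe, while Cd5l, the other gene, is given no value because hypothalamic Sham and hippocampal PEL_10d were under the floor of 3 counts in every library. With both libraries labelled Sham 1 put back 3 were past it, and also 3 on leaving out any one of hypothalamic Sham 2 and Sham 3, hippocampal Sham 2 and Sham 3, and hippocampal PEL_10d 3. In the first case Apoc1, Lpl and Plin2 were not among them, and in the others Apoc1, Plin2 and Cd5l were not. Fewer genes of the whole table were called as well in the first case and without any one of these Sham libraries, as counted in the last section. Of 68 list genes 17 passed. Trem2 differed by 1.90 ± 0.37, Lipa by 1.53 ± 0.39, Npc2 by 1.25 ± 0.16 and Cpt1a by 1.23 ± 0.13 (edgeR adjusted p 0.000292 to 0.029, each higher in 3 of 3 hypothalamic PEL_10d libraries than in Sham). Of 16 called list genes chosen by rule, 7 or 8 were no longer called without any one of these 4 Sham libraries, 6 without hippocampal PEL_10d 2, and all but Soat1 and Cyp46a1 with both libraries labelled Sham 1 put back. The choroid plexus difference in the hippocampus enters this contrast too, with 5 of 6 markers called (median 3.71). Other marker lists moved with it as well. edgeR called 8 of 8 general macrophage and microglial markers, 5 of 7 of astrocytes, 4 of 6 of leptomeninges and fibroblasts and 3 of 7 of microglia. It also called 1 of 6 neuronal and 1 of 9 hippocampal markers. The part of all these markers was not tested.

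Macrophage and microglial markers were higher in the lesioned hypothalamus. In bulk tissue, more cells of a type and more RNA per cell cannot be told apart. The sum of 8 general markers of macrophages and microglia was 91.7 and 99.7 FPKM in Sham, 88.7, 102 and 80.8 in Sham with GH, 1594, 1233 and 2022 in PEL_3d and 3044, 3132 and 2036 in PEL_3d_GH. At day 10 it was 1082, 480.4 and 1145 FPKM in PEL_10d and 809.9, 1155 and 1442 in PEL_10d_GH. PEL_10d 2, lowest of its group here, was also lowest for each of the 10 genes but Apoc1. C1qa or C1qb was the most abundant in unlesioned libraries and Lyz2 in lesioned ones, and none was at 0. All 8 rose at day 3 (median 3.65) and at day 10 (median 2.29) against Sham, and 7 of 8 fell from day 3 to day 10 (median -1.07), while Apoe, Apoc1 and Abcg1 were higher at day 10 and Apoc1 at day 3 overlapped Sham. With GH in lesioned mice the median was 0.39 at each time and edgeR called 0 of 8 (4 under an unadjusted p of 0.05 at each time, and 1 and 2 by DESeq2). The sum of PEL_3d_GH was above that of PEL_3d in every library. Of the 8 markers only Lyz2 and Tyrobp were separated in this way, and the others overlapped.

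The 7 microglial markers, led by Csf1r with none at 0, summed to 85.7 and 78.4 FPKM in Sham, 279, 288 and 289.6 in PEL_3d and 135, 146 and 151 in PEL_10d, with 7 of 7 rising at day 3 (median 1.73) and 4 of 7 at day 10 (median 0.43). With GH they summed to 309, 263 and 228 FPKM in PEL_3d_GH, 195, 205 and 156 in PEL_10d_GH and 60.0, 74.9 and 61.9 in Sham with GH. The 6 border macrophage markers, none at 0, summed to 4.97 and 4.2 FPKM in Sham and 3.95, 5.25 and 3.94 in Sham with GH, both led by Mrc1 or Pf4, and to 43.8, 34.6 and 71.9 in PEL_3d and 85.7, 78.9 and 43 in PEL_3d_GH, led by Pf4 and F13a1. They were 19, 6.61 and 16 FPKM in PEL_10d and 10.6, 18 and 22.5 in PEL_10d_GH, led by Ms4a7, with 5 of 6 rising at day 3 (median 2.61) and 1 of 5 at day 10 (median 0.62). Day 3 libraries were thus the highest in both lists, as they were for Plin2, Msr1 and Apoc2.

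The 5 blood monocyte markers, led by Vcan or Chil3, summed to 5.37 and 5.31 FPKM in Sham, 20.4, 23.1 and 44.9 in PEL_3d, 24.9, 25.9 and 16.1 in PEL_3d_GH, 11.7, 9.2 and 8.69 in PEL_10d and 11.7, 11 and 10.4 in PEL_10d_GH. All 5 rose at day 3 (median 3.72) and 3 of 4 at day 10 (median 2.15, or 1.9 with a gene at the floor set to its bound). Neutrophil markers, led by S100a8 or S100a9 and with Ly6g at 0 in most libraries, summed to 4.74 and 1.02 FPKM in Sham, 5.72, 13.9 and 13.2 in PEL_3d and 8.43, 6.79 and 2.71 in PEL_10d. With GH the sums were 2.03, 2.22 and 4.17 FPKM in Sham with GH, 4.58, 5.89 and 4.84 in PEL_3d_GH and 33.5, 11.6 and 11.2 in PEL_10d_GH, each of the last above every PEL_10d library. PEL_10d_GH 1, the highest, also held the most blood marker RNA of the hypothalamic libraries, 159 FPKM. Both neutrophil markers that could be tested rose at day 3 and neither passed with edgeR at day 10 (0 under an unadjusted p of 0.05, 0 by DESeq2). Within GH-treated mice edgeR called 1 of 2 at day 3 and 2 of 2 at day 10 (1 and 2 by DESeq2). The part of any of these cell types in the levels of the 10 genes was not tested.

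Astrocyte markers, which matter for Apoe, summed to 1016 and 1041 FPKM in Sham (led by Aldoc), 1882, 1664 and 1758 in PEL_3d (led by Gfap) and 1431, 1382 and 1441 in PEL_10d. With GH they summed to 1119, 1079 and 1103 FPKM in Sham with GH, 1962, 1919.9 and 1677 in PEL_3d_GH and 1544, 1945 and 1556 in PEL_10d_GH. Every PEL_10d_GH library was above every PEL_10d library, and every library of Sham with GH above both of Sham, and the part of this in the level of Apoe was not tested. Of 7, 4 rose and 2 fell at day 3 (median 0.54), and 3 rose at day 10 (median 0.19). Neuronal markers, led by Snap25, summed to 1079 and 1039.5 FPKM in Sham, 843, 931 and 841 in PEL_3d and 894, 1001 and 993 in PEL_10d, with 5 of 6 falling at day 3 (median -0.32) and 1 of 6 at day 10 (median -0.16). Markers of leptomeninges and fibroblasts, led by Igf2 or Dcn, summed to 115 and 124 FPKM in Sham, 232, 131 and 246 in PEL_3d and 401, 189 and 272 in PEL_10d, with 4 of 6 rising and 1 falling at day 3 (median 1.62) and 5 of 6 rising at day 10 (median 1.49).

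Oligodendrocyte markers, led by Mbp, summed to 2030.2 and 2813 FPKM in Sham, 2344, 2153 and 2394 in Sham with GH, 2296, 2283 and 2377 in PEL_3d, 2468, 2263 and 2669.5 in PEL_3d_GH, 3463, 3290.0 and 3464 in PEL_10d and 3970.2, 4315 and 3832 in PEL_10d_GH. They had 0 of 6 called by edgeR at day 3 (0 under an unadjusted p of 0.05 and 0 by DESeq2, median -0.02), 3 of 6 rising at day 10 (median 0.49) and 6 of 6 rising from day 3 to day 10 (median 0.55). This order, with day 10 above day 3, was not that of the microglial lists. Within GH-treated mice edgeR called 1 of 6 oligodendrocyte markers at day 3 and 6 of 6 at day 10. Endothelial markers, led by Ly6c1, summed to 91 and 92.3 FPKM in Sham, 89.6, 87.3 and 89.4 in Sham with GH, 130.2, 135 and 145 in PEL_3d, 129, 135 and 109 in PEL_3d_GH, 117, 109 and 126 in PEL_10d and 124, 117 and 116 in PEL_10d_GH, with 3 of 5 rising at day 3 (median 0.43) and 2 of 5 at day 10 (median 0.32).

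Markers of blood, led by Hbb-bs, had 0 of 3 called by edgeR against Sham at either time (0 under an unadjusted p of 0.05 and 0 by DESeq2, medians -0.31 and 1.26), and sums of 11.1 to 159 FPKM over the hypothalamic libraries. In the lesion comparisons within GH-treated mice edgeR called 2 of 3 blood markers at day 3 and 4 of 4 at day 10 (2 and 3 by DESeq2). Anterior pituitary markers, led mostly by Cga and with Pou1f1 at 0 in most libraries, had 1 of 4 falling at day 3 (median -0.77) and 0 of 2 called by edgeR at day 10 (0 under an unadjusted p of 0.05 and 0 by DESeq2, median -1.38). Of these markers edgeR called 0 of 1 at day 3 and 2 of 3 at day 10 within GH-treated mice (0 and 2 by DESeq2). Their sums were 31.3 and 18.1 FPKM in Sham, 15.5, 9.65 and 15 in Sham with GH, 10.1, 10.8 and 24.3 in PEL_3d, 14, 25.6 and 9.31 in PEL_3d_GH, 32.7, 11.1 and 4.81 in PEL_10d and 8.75, 25.5 and 72.5 in PEL_10d_GH. In the hypothalamus 2 of 6 choroid plexus markers fell at day 3 (median -0.64) and 0 of 6 were called by edgeR at day 10 (3 under an unadjusted p of 0.05 and 1 by DESeq2, median 0.02). Within GH-treated mice edgeR called 2 of 6 at day 3 and 1 of 6 at day 10. Hypothalamic markers, led by Pmch, summed to 1464 and 1473 FPKM in Sham, 958, 1376 and 1332 in Sham with GH, 948, 1086 and 999 in PEL_3d, 986, 949 and 1351 in PEL_3d_GH, 1031, 1265 and 1079.8 in PEL_10d and 1302, 1791 and 1293 in PEL_10d_GH. Of 10 hypothalamic markers 7 fell at day 3 (median -0.6) and 3 at day 10 (median -0.52), and of the hippocampal markers 1 rose and 1 fell of 5 at day 3 and 1 rose of 6 at day 10 (medians -0.13 and 0.34).

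Across the 17 hypothalamic libraries without the one labelled Sham 1, the 10 genes did not vary as a single block. Correlations of log2(FPKM + 1) are descriptions, since the libraries share groups and the genes share libraries and depth. With the mean of the other 9 genes the correlation was 0.977 for Lpl, 0.974 for Abca1, 0.959 for Cd5l and 0.927 for Fabp5, and lower for Apoe (0.772) and Apoc1 (0.421). Within the 12 lesioned libraries Apoc2, Plin2, Msr1 and Fabp5 went together (0.98 for Apoc2 with Plin2, 0.98 for Plin2 with Msr1, 0.97 for Apoc2 with Msr1, and for Fabp5 0.97 with Plin2, 0.95 with Msr1 and 0.9 with Apoc2). Apoc1 ran against Msr1 there (-0.75) and with Apoe (0.71). The genes other than these 10 whose levels were most like their mean, of 13385 ranked, were Man1c1 and Lamp1 (r = 0.991), P2rx4 (0.99), Tyrobp and Ctsa (0.989), Npc2, Trem2 and Il10rb (0.988), and Col3a1 and Fcer1g (0.987). Mean FPKM of Trem2 went from 5.7 in Sham to 56.9 in PEL_3d and 38.1 in PEL_10d, and that of Lamp1 from 228 to 372 and 321.

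Outside the chromosome 7 cluster the genes lie apart, Fabp5 at chr3:10012548-10016607 and Cd5l at chr3:87357881-87371073 (plus strand), Abca1 at chr4:53030787-53159895 and Plin2 at chr4:86648386-86670060 (minus), Msr1 at chr8:39581685-39642673 (minus), Lpl at chr8:68880491-68907448 (plus) and Abcg1 at chr17:31057675-31117988 (plus). Promoter windows of 300 bases, from 250 before to 50 after the start, were found for 5 of the 10 genes (7 windows) in RefSeq, build GRCm38.p6. Both strands were searched for the direct repeat AGGTCA with a spacer of 4 bases (the DR4 form known for LXR) or 1 base (the DR1 form known for PPAR), with at most 3 mismatches of 12 letters, and for exact CACGTG and GAGGAAGT. Of 32851 promoter windows, 21.88% held a DR4 match, 24.65% a DR1 match, 7.15% CACGTG and 3.2% GAGGAAGT, so a match is common and is a description only. The Cd5l window held none of the 4. The windows of Abca1, Plin2 and Apoc2 are shown because Abca1 stands for efflux and stayed high at day 10, while Plin2 and Apoc2 were far lower at day 10 than at day 3. Each is written 5′ to 3′ on the minus strand, with matches in capitals. In Abca1 (chr4:53159846-53160145) these are CACGTG and a DR4 match with 3 mismatches, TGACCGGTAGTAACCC. In Plin2 (chr4:86670010-86670309) they are CACGTG and DR1 matches with 2 and 3 mismatches, and in Apoc2 (chr7:19677892-19678191) DR1 matches with 1 and 3 mismatches, the closer being AGGCCAGAGGTCA.
Abca1: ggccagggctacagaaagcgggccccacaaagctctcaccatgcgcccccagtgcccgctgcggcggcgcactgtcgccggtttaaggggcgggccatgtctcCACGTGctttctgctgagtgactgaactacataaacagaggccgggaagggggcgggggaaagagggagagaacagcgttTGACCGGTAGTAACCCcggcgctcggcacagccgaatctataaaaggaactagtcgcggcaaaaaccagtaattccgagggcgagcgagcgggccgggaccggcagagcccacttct
Plin2: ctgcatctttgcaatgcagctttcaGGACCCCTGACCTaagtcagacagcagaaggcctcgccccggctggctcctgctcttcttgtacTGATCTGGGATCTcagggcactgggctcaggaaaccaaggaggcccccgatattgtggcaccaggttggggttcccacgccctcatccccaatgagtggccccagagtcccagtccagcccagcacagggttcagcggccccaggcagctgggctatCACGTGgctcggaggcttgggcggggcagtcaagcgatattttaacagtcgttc
Apoc2: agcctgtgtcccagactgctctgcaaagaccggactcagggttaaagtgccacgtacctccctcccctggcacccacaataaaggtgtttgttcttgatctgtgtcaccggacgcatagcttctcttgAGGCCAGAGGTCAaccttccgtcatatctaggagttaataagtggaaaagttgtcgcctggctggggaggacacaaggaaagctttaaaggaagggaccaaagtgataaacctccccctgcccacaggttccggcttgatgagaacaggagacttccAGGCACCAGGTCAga

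The most upstream of the 3 Apoe windows (chr7:19699139-19699438) held DR1 matches with 3 mismatches and no DR4 match, and the other Apoe windows held none of the 4 motifs. No match in such a window says only that these letters are not there.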

How the data were processed

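RNA from hypothalamus and hippocampus was extracted with the RNeasy mini plus kit and made into libraries with the SMARTER mRNA-Seq library kit. Per the study's methods the authors aligned reads with Hisat2 and counted them per gene with featureCounts, and the submitters' processing notes name GRCm38/mm10. For each of 22274 genes and 24 libraries the table deposited by the authors holds 1 estimated count and 1 FPKM, the latter being the count divided by the authors by gene length and library size. Of the deposited counts 8.22% are not whole, and the length implied by count and FPKM varies between libraries for some genes. Plain counting per gene gives neither, so how the deposited values were made is in part unknown. Of the identifiers 22219 were matched to a symbol and 55 were not. Total counts ran from 15095267 to 17973494, so that a gene with few counts in a group is measured with little precision.

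Counts were rounded, genes with low counts were removed (edgeR filterByExpr, minimum count 10) and libraries scaled by TMM. Each comparison was fitted with the edgeR quasi-likelihood test on the groups compared, with Benjamini-Hochberg adjustment over all genes tested and a threshold of 0.05. An SE is the size of the log2 difference divided by the square root of its F statistic. A gene with a group of libraries all at or under 3 counts is given no fitted value. The scripts were tested on simulated data. The study left out 1 hypothalamic Sham library as an outlier without giving its number in the sources used here. Both libraries labelled Sham 1 were left out here because of their tissue markers.

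The 10 genes and the gene lists were chosen with earlier results of these data known, and 3 genes of the lists are not reported here or counted in any list. Genes named are all 10, up to 4 genes per list and comparison with the smallest adjusted p among those called, the most abundant genes of each marker list and those at 0, and the 10 genes whose log2(FPKM + 1) correlated most with the mean of the 10 genes, each centred and scaled. Alternatives were DESeq2, DESeq2 size factors in edgeR, no filter on low counts, the replicate block, one fit over all hypothalamic groups, all libraries as labelled, leaving out each library in turn, and normalized CPM in place of FPKM. The authors compared groups with DESeq2. Versions were R 4.3.3, edgeR 4.0.16, DESeq2 1.42.0, Python 3.11.15, pandas 2.3.3, numpy 2.4.6, scipy 1.17.1 and matplotlib 3.10.9.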

Additional observations from a re-analysis of the deposited data

Results flagged for a closer look

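Each result here is a difference between the effects of 1 treatment in 2 settings, from an interaction in edgeR on the log2 scale. The 10 genes were chosen on these libraries, the GH contrasts among them, so their values are a description and support nothing. The fitted effect of GH on Apoe was larger at day 3 after the lesion than in Sham by 0.83, which was no longer past the threshold with DESeq2 size factors, with the library labelled Sham 1 put back, or without any of 10 of the 11 libraries.

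For the lesion at day 10 the effect in the hypothalamus exceeded that in the hippocampus by 3.63 for Lpl, 1.75 for Apoc1, 1.69 for Abca1, 1.49 for Plin2 and 1.15 for Apoe, again as a description. Apoc1 and Plin2 were no longer past the threshold without any one of the 4 Sham libraries or hippocampal PEL_10d 3. Apoc1 was lost too without hippocampal PEL_10d 1 or hypothalamic PEL_10d 1 or PEL_10d 2, and Plin2 without hippocampal PEL_10d 2 or hypothalamic PEL_10d 3. With both libraries labelled Sham 1 put back, Apoc1, Lpl and Plin2 were not past it. Among receptors it was larger by 1.90 for Trem2, 1.61 for Cxcl16, 1.5 for Stab1 and 0.94 for Scara3. Lysosomal genes differed by 1.53 (Lipa), 1.25 (Npc2), 0.44 (Lamp1) and 0.43 (Psap). LXR and sterol genes differed by 1.18 (Smpdl3a), 0.93 (Mylip), 0.54 (Nr1h2) and -0.69 (Cyp46a1). In the remaining lists the differences were 1.23 for Cpt1a, 1.16 for Pltp, 0.96 for Soat1 and 0.65 for Clu. Of these 16 list genes, 7 or 8 were no longer called without any one of the 4 Sham libraries, 6 without hippocampal PEL_10d 2, 5 and 4 without hypothalamic PEL_10d 3 and PEL_10d 1, and 2 without hippocampal PEL_10d 3. With both libraries labelled Sham 1 put back Soat1 and Cyp46a1 were called, and the other 14 were not. Hippocampal Sham libraries held far more choroid plexus RNA than hippocampal PEL_10d libraries. In this interaction edgeR called 5 of 6 choroid plexus markers and 8 of 8 general macrophage and microglial markers. It also called 5 of 7 of astrocytes, 4 of 6 of leptomeninges and fibroblasts and 3 of 7 of microglia. The part of these markers in the differences was not tested.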

How the results depend on the processing

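Of 1167 values of the 10 genes under the alternatives, 1126 moved by less than the spread between libraries, and 1290 of 1505 list gene values kept their direction and their side of the threshold, with 211 no longer past it and 4 reversed. All 4 reversals came with every library as labelled, namely Mgll (-0.61 at day 3, -0.82 at day 10), Smpdl3a (-0.09 at day 10) and Lrp1 (-0.01 in the hippocampus). FPKM and normalized CPM gave like ratios in 70 of 77 cases, and most of the other 7 were of Abcg1. No scaling moved the median of all genes by over 0.1.

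Counts of genes called depended on single libraries. With every library as labelled edgeR called 1683 genes at day 3 against Sham in place of 6035, 269 at day 10 in place of 1392, 94 between tissues in place of 1616, and 0 for GH in Sham (787 at an unadjusted p under 0.05), in the hippocampus (1434) and for the GH interaction at day 3 (1266). Of the 10 genes it then called 4 at day 10, 3 between tissues and 0 in that interaction, which DESeq2 size factors also brought to 0.

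DESeq2 called 59 genes for GH at day 3 in place of 4 (3 of the 10 genes), 36 at day 10 in place of 0, 256 in Sham in place of 159, and 144 and 97 in the GH interactions at day 3 and day 10 in place of 7 and 0. Without a filter these were 8 at day 3, 359 in Sham, 19 and 12. One fit over the hypothalamus gave 9 for GH at day 3, 2 at day 10 and 13 in Sham. Correlations of deviations between libraries of like replicate number ran from -0.479 to 0.397, and so few libraries cannot decide whether samples were paired. In PEL_10d against PEL_3d they were positive at each replicate number (0.122, 0.397 and 0.096). There the replicate block called 24 of 66 list genes in place of 18. The replicate block gave 1 for GH at day 3, 317 in Sham and 1486 in the hippocampus in place of 873. DESeq2 size factors in place of TMM changed the GH interaction at day 3 from 1 higher and 6 lower to 0 and 5.

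Leaving out 1 library, where a lone Sham library is assumed to vary like the other groups, gave 3394 to 6632 genes at day 3 against Sham (3394 without Sham 2, 3887 without Sham 3) and 205 to 1486 at day 10 (205 and 304), with 2 to 9 of the 10 genes. Day 10 against day 3 gave 1333 to 2799 (1333 without PEL_3d 3, 1478 without PEL_10d 2, 1629 without PEL_3d 1) and 4 to 7 of the 10 genes. GH at day 3 gave 1 to 56 (56 without PEL_3d_GH 3, 1 or 2 without PEL_3d 1, PEL_3d 3, PEL_3d_GH 1 or PEL_3d_GH 2) and 0 to 3 of the 10. GH in Sham gave 44 to 190.0, with 52, 45 and 44 without Sham 2, Sham 3 and Sham with GH 1. The hippocampus gave 71 to 1746 (1746 without PEL_10d 1, 370.0 without PEL_10d 2, 106 without Sham 2, 71 without Sham 3). The GH interaction at day 3 gave 0 to 633 genes and 0 to 3 of the 10, with 633 without PEL_3d_GH 3, 15 without PEL_3d_GH 2 and 2 or fewer without each of the other 9. That at day 10 gave 0 to 48 (48 without PEL_10d 1, 1 without PEL_10d_GH 3). The tissue interaction gave 602 to 2244 genes, with 602 to 969 without hippocampal PEL_10d 2 or any of the 4 Sham libraries, and 3 to 6 of the 10. In the lesion comparisons within GH-treated mice no alternative moved the count of genes by over 1.5 times. The cause of these changes was not tested. Depth limits what can be said of Apoc2, Msr1 and Cd5l in unlesioned tissue, where counts were few.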
